A study of Mus musculus with 10 samples.

Results

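Cathepsins are the proteases of the lysosome, and 10 of them were followed here in mouse skeletal muscle: Ctsl, Ctsb, Ctsd, Ctss, Ctsz, Ctsa, Ctsh, Ctsc, Ctsk and Ctsf. They were given by name and were found by gene symbol among the 39179 gene identifiers of the count files. All 10 passed the filter on low counts and were among the 12690 genes tested. RNA was sequenced from the tibialis anterior, a fast muscle of the lower leg, of 4 control mice and 6 LLC mice. LLC mice had received Lewis Lung Carcinoma cells, a mouse lung cancer line, under the skin of the flank, and wasted as the tumor grew (cancer cachexia). Control mice received the injection without cells, and each mouse gave 1 library of unpooled RNA. The labels do not settle the background of the animals: the sample labels give C57BL/6J, 10 weeks of age and 23 days of tumor growth, and the series text gives C57BL/10 males, 8 weeks of age and collection on day 22. In either case strain and age were the same for both groups, and no transgene or second treatment was involved.

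Most cathepsins are cysteine proteases that are made as inactive precursors, carried to the lysosome and activated in its acid. Ctsl and Ctsb belong to that class and degrade proteins in nearly every cell, Ctsd is an aspartic protease, and Ctsa is a serine carboxypeptidase that also protects other lysosomal enzymes. Several members are best known from other cells than the muscle fibre: Ctss from macrophages and other antigen-presenting cells, Ctsc from leukocytes, where it activates the proteases of granules, and Ctsk from osteoclasts and fibroblasts, where it cleaves collagen. In a wasting muscle the lysosome takes up material delivered by autophagy, and Ctsl is a long-known marker transcript of atrophy.

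Before the values, letters at the gene starts are shown for the 4 members found to hold CACGTG there, and for Ctsk. RefSeq (build GRCm38.p6) supplied a window of 250 bases before and 50 bases after the start for 8 of the 10 members, not for Ctsb and Ctsh. The E-box CACGTG, which reads the same on both strands and is the core of the element bound by the lysosomal regulator TFEB and its relatives, was present in 4 of these 8 members, Ctsl, Ctsd, Ctsa and Ctsf. It was present in 7.15% of all 32851 windows of that length. Each match is given 5′ to 3′ on the gene's strand with its flanks, capitals marking CACGTG.
Ctsl, chr13:64370739-64370768, minus strand: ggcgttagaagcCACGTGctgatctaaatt
Ctsd, chr7:142388055-142388077, minus strand: tccccCACGTGacctgtatccag
Ctsd, chr7:142387908-142387937, minus strand: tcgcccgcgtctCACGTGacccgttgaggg
Ctsa, chr2:164833749-164833778, plus strand: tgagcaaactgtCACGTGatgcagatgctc
Ctsa, chr2:164833766-164833795, plus strand: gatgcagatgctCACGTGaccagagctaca
Ctsf, chr19:4855074-4855103, plus strand: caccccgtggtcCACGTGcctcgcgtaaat
These matches began 236 bases before the Ctsl start, 245 and 98 before that of Ctsd, 12 before and 6 after the Ctsa start (in 1 of its windows) and 79 before that of Ctsf. The match of Ctsf and the more distant match of Ctsd lay outside the gene in GENCODE release M21, whereas the others overlapped an annotated exon. For Ctsl and Ctsd the earliest GENCODE start lies upstream of the RefSeq start, so that the Ctsl window is inside the gene, as is the Ctsa window with its matches. The window of Ctsk, the member with the largest fall, held no CACGTG in its 300 bases, and its 250 bases before the start had no CpG.
Ctsk, chr3:95498960-95499209, plus strand: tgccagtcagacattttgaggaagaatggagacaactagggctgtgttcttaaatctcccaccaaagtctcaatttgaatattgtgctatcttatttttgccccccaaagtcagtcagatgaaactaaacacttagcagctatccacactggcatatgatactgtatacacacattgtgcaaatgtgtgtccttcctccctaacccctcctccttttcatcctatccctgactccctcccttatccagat
Searched on both strands, GTAAACA, the core letters read by FoxO factors, was in none of the 8 members (3.65% of all windows), TGANTCA, read by AP-1, was in none (7.81%), and TTCNNNGAA, read by STAT factors, was in Ctsc alone (8.30%). These are matches of letters only, and no binding was measured.

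Libraries held 16693209 to 21303084 counts, so that 3 counts, the smallest number taken as detected, equalled 0.148 to 0.174 CPM (counts per scaled library size, as used throughout). Fast myofibre markers had summed levels of 156310 to 167505 CPM in control and 115550 to 171814 CPM in LLC, as the label of the tissue requires, and lymphocyte markers stayed below 1 CPM in sum. The LLC libraries were uneven. On the principal component that carried 56.1% of the variance, control muscles lay between -30.7 and -28.0, LLC 2, 3 and 4 between -4.90 and -2.73, LLC 6 at 16.2, LLC 5 at 33.6 and LLC 1 at 77.1. LLC 1 stands apart from the other libraries, and results that rest on it are given with and without it. Of all tested genes, 85.1% had a larger SD of log2 CPM in LLC than in control, and so had 9 of the 10 cathepsins, Ctss being the exception.

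Ctsk and Ctsh were the only members past the threshold used here, and both fell. By the quasi-likelihood test of edgeR with Benjamini-Hochberg adjustment over all tested genes, a change counted as past the threshold at an adjusted p of 0.05 or less and at least 1.5-fold. By that rule 2 of the 10 members were lower in LLC and 0 were higher, where the background over all tested genes was 3.99% lower and 1.65% higher, 5.63% in either direction. The same 2 members had every LLC muscle below every control muscle, against 9.57% of all genes, and for 0 members did all LLC muscles lie above all control muscles, against 6.4%. Unadjusted edgeR p was 0.05 or less for 4 of the 10, against 27.4% of all tested genes. A member that did not pass the threshold is not shown to be unchanged. The median log2 fold change of the 10 was 0.01 and that of all tested genes was 0.00.

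**Figure D1:**
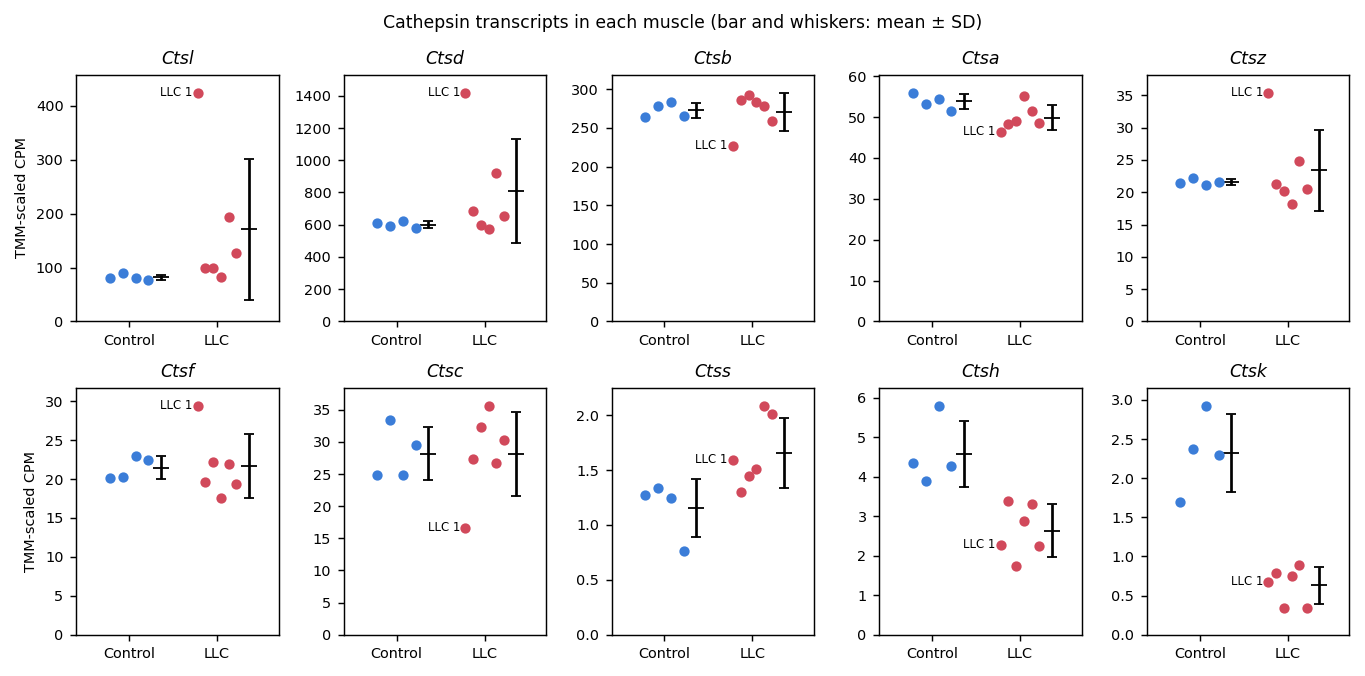
TMM-scaled CPM of the 10 cathepsins (y axis, starting at 0 in each panel) in the 4 control and 6 LLC muscles, with 1 point per muscle and the mean ± SD beside each group. LLC 1 is named, and it is the highest muscle for Ctsl, Ctsd, Ctsz and Ctsf and the lowest for Ctsb, Ctsa and Ctsc, while the groups are separate only for Ctsh and Ctsk.

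Ctsk, the collagen-cleaving cathepsin, had the largest change of the 10. Its level was 1.69, 2.37, 2.92 and 2.30 CPM in control 1 to 4 and 0.669, 0.791, 0.348, 0.756, 0.892 and 0.335 CPM in LLC 1 to 6. The lowest control muscle was therefore above the highest LLC muscle. The fall was 1.85 on the log2 scale (log2 fold change -1.85 ± 0.26, SE), with an adjusted p of 0.00156 (edgeR, Benjamini-Hochberg). Without LLC 1 the log2 fold change was -1.86. The gene is rare in this tissue, with 32 to 54 counts per control library and 6 to 18 per LLC library. In bulk muscle, fewer cells of a type and less RNA per cell cannot be told apart.

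Markers of fibroblasts and fibro-adipogenic progenitors (FAPs), the collagen-making stromal cells of muscle, were lower in the same libraries. Of the 15 listed, 14 were lower and 1 higher past the threshold, against 3.99% and 1.65% of all tested genes. The median log2 fold change of the 15 was -1.77. Their summed level was 628 to 785 CPM in control and 194 to 276 CPM in LLC, and none of them was at 0 in every sample. Col3a1 and Col1a1, chains of the fibrillar collagens, showed log2 fold changes of -3.09 and -3.08, the matricellular gene Smoc2 of -1.36, and Ly6a, the gene of the Sca-1 antigen, was the exception at 0.95. Expressed as a percentage of that summed level, Ctsk was 0.270 to 0.372% in control and 0.159 to 0.329% in LLC, ranges that overlap. The part of the stromal markers in the fall of Ctsk was not tested.

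Among 10384 genes with an average log2 CPM of at least 1, the 5 whose log2 CPM followed Ctsk most closely over the 10 muscles were Plau (Pearson r = 0.98), Gsn (0.97), Dcn (0.97), Rarres2 (0.97) and Ccl11 (0.97). Gsn and Dcn are on the stromal marker list. All 5 had negative log2 fold changes, from -1.52 for Gsn to -0.61 for Rarres2. These correlations describe points that share the difference between the groups and the library depth, and r was 0.97 to 0.99 without LLC 1.

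Ctsh, an aminopeptidase of the lysosome that is high in lung and in leukocytes, fell less. Control muscles had 4.34, 3.90, 5.79 and 4.27 CPM and LLC muscles 2.26, 3.39, 1.74, 2.87, 3.32 and 2.24 CPM. The groups did not overlap, control 2 and LLC 2 being the nearest. The log2 fold change was -0.79 ± 0.19 (SE), with an adjusted p of 0.0327 (edgeR, Benjamini-Hochberg), and -0.74 without LLC 1. This call was close to the threshold: it was lost without any 1 of the 4 control muscles (adjusted p 0.0542 to 0.124, edgeR with Benjamini-Hochberg) and without LLC 6 (0.0765), with log2 fold changes between -0.87 and -0.66 throughout. As a percentage of the summed level of the macrophage markers, Ctsh was 10.4 to 13.5% in control and 6.34 to 7.74% in LLC. Lyz2 gave that sum more counts than any other marker. Of the summed stromal markers Ctsh was 0.612 to 0.737% in control and 0.793 to 1.23% in LLC.

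Ctsl was the member with the highest log2 fold change, and this did not pass the threshold. Control muscles were close together at 80.5, 89.1, 81.2 and 77.6 CPM. LLC muscles had 424, 99.1, 99.3, 81.6, 193 and 127 CPM for LLC 1 to 6. LLC 4 lay within the control range and the other 5 LLC muscles lay above all controls. Relative to the control mean, the level was 5.17-fold in LLC 1, 2.35-fold in LLC 5, 1.55-fold in LLC 6, 1.21-fold in both LLC 2 and LLC 3, and 0.995-fold in LLC 4. The log2 fold change was 1.06 ± 0.42 (SE) with an adjusted p of 0.140 (edgeR, Benjamini-Hochberg). Without LLC 1 it was 0.56 ± 0.20, with an adjusted p of 0.0861 (edgeR, Benjamini-Hochberg). The DESeq2 Wald test gave 1.07 with an adjusted p of 0.0606. Over the 20 other ways of running the comparison the log2 fold change ranged from 0.37 to 1.20 and the gene was never called. In LLC, Ctsl had a coefficient of variation of 76.3%, against 6.01% in control.

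**Figure D2:**
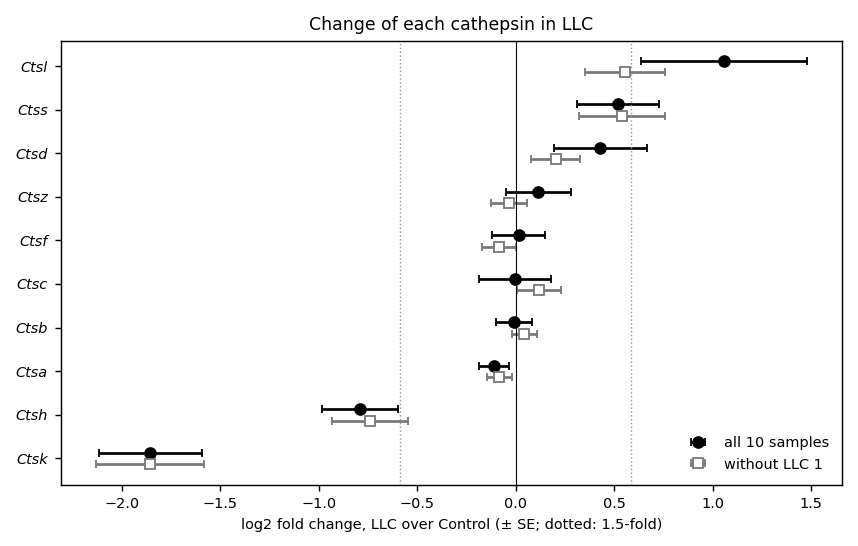
Log2 fold change of each cathepsin, LLC over control (x axis), with the SE as whiskers, from all 10 samples (filled circles) and without LLC 1 (open squares); dotted lines mark 1.5-fold. Ctsk at -1.85 and Ctsh at -0.79 keep their position without LLC 1, while Ctsl moves from 1.06 to 0.56 and Ctsd from 0.43 to 0.20.

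Ctsd, the main aspartic protease of the lysosome, followed Ctsl from muscle to muscle at a smaller amplitude. It stood at 613, 591, 622 and 578 CPM in control and at 1418, 683, 600, 573, 923 and 657 CPM in LLC 1 to 6. LLC 1 and LLC 5 were the highest for both genes and LLC 4 the lowest LLC muscle for both. The log2 fold change of Ctsd was 0.43 ± 0.24 (SE), adjusted p 0.250 (edgeR, Benjamini-Hochberg), and 0.20 without LLC 1. Over the 10 muscles the Pearson r of Ctsl with Ctsd was 0.98, and 0.92 without LLC 1. That of Ctsl with Ctsz was 0.90 and 0.59, and with Ctsf 0.72 and 0.11, so that these rested on LLC 1 to a large degree. All are descriptions over libraries that also differ in depth and along the leading component.

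The genes nearest to Ctsl, of 10383 compared, were not lysosomal: Npm1 (r = 0.998), Wdr43 (0.997), Mybbp1a (0.996), Psmc1 (0.995) and Psma7 (0.995). Npm1, Wdr43 and Mybbp1a encode nucleolar proteins, and Psmc1 and Psma7 encode subunits of the proteasome. None of the 5 passed the threshold, with log2 fold changes of 0.46 for Mybbp1a to 0.82 for Psma7, and r was 0.985 to 0.996 without LLC 1.

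Ctss, the cathepsin of antigen-presenting cells, was near the limit of what this depth can show. Its level was 1.27, 1.33, 1.24 and 0.767 CPM in control and 1.59, 1.30, 1.45, 1.51, 2.08 and 2.01 CPM in LLC, from 14 to 27 counts per control library and 23 to 42 per LLC library. The groups overlapped through LLC 2, and control 4 was low. The log2 fold change was 0.52 ± 0.21 (SE) with an adjusted p of 0.138 (edgeR, Benjamini-Hochberg), and 0.54 without LLC 1. The highest LLC muscles of Ctss were LLC 5 and LLC 6, which were also the highest for Ctsl after LLC 1. Its Pearson r with Ctsl was 0.53 over the 10 muscles and 0.78 without LLC 1. Ctss lies 17.4 kb downstream of Ctsk on the same strand of chromosome 3 (Ctsk, 95499256 to 95509362; Ctss, 95526786 to 95556403, GRCm38), so the neighbours had log2 fold changes of opposite sign, a difference that was not tested. The nearest genes to Ctss in pattern were Sar1b, Pkn3, Cbx1, Dgcr2 and Srsf7, with r of 0.92 to 0.94 over the 10 muscles.

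Macrophage markers are given beside Ctss because that gene is best known from these cells. Of 17 listed, 12 were tested and 3 passed the threshold, against 5.63% of all tested genes. Itgam, an integrin shared with neutrophils, was higher (1.97), whereas Mrc1 (-1.05) and Lyve1 (-2.53), genes of resident macrophages, were lower. Their summed level was 32.1 to 51.6 CPM in control and 27.4 to 47.2 CPM in LLC, and none was at 0 in every sample. As a percentage of that sum, Ctss was 2.06 to 3.95% in control and 2.97 to 6.68% in LLC, overlapping ranges. The genes of class II antigen presentation had 4 of 5 members tested and 0 past the threshold, with a median log2 fold change of -0.37. Within them H2-Aa stood at -0.57 and H2-Ab1 at -0.32. Neutrophil markers were the immune list that rose. Of 14 listed, 12 were tested and all 12 were higher past the threshold, against 1.65% of all tested genes. Their median log2 fold change was 4.23 (4.02 with Clec4d at its bound). The sums were 1.43 to 3.31 CPM in control and 38.6 to 83.1 CPM in LLC. These genes had few or no counts in control and passed the filter through the LLC libraries, so the count follows in part from the filter. Of these, Retnlg and Clec4d had the highest fitted values, which depend on the prior count. Retnlg had 1 count over the control libraries and 24 to 97 counts per LLC library. Clec4d had 0 counts in every control library, so that its LLC mean was at least 3.74-fold higher than 3 counts per control library. Cxcr2 (3.09) and Mmp9 (1.97) were the lowest called. The call of Mmp9 was lost without control 1, 2 or 4 and without LLC 2, 4, 5 or 6, at log2 fold changes of 1.73 to 2.07. Their part in the level of any cathepsin was not tested.

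The other 5 members had small log2 fold changes between the groups, although LLC 1 lay further from control. Relative to the control mean, LLC 1 was at 1.64-fold for Ctsz, 1.37-fold for Ctsf, 0.860-fold for Ctsa, 0.830-fold for Ctsb and 0.589-fold for Ctsc. Ctsb, second to Ctsd per length in control muscle, ranged from 264 to 283 CPM in control and from 226 in LLC 1 to 292 in LLC 3, with a log2 fold change of -0.01 ± 0.09 (SE). Ctsa ranged from 51.6 to 55.9 CPM in control and from 46.3 to 55.2 CPM in LLC, and 5 of 6 LLC muscles were below all controls, at a log2 fold change of -0.11 ± 0.08. Neither was past the threshold, with adjusted p of 0.950 and 0.355 (edgeR, Benjamini-Hochberg).

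Ctsz, a carboxypeptidase, Ctsf, a cysteine protease, and Ctsc, the dipeptidyl peptidase of leukocyte granules, completed the set. Ctsz ranged from 21.1 to 22.2 CPM in control and from 18.2 to 35.4 CPM in LLC, with a median of 20.8. Ctsf ranged from 20.1 to 23.0 CPM in control and from 17.5 to 29.4 CPM in LLC, with a median of 20.8. Ctsc ranged from 24.8 to 33.4 CPM in control and from 16.6 to 35.6 CPM in LLC, with a median of 28.8. For each of the 3 genes LLC 1 lay at an end of the LLC range, the upper end for Ctsz and Ctsf and the lower end for Ctsc. Their log2 fold changes were 0.11 ± 0.17, 0.02 ± 0.13 and 0.00 ± 0.18 (SE), with adjusted p of 0.668, 0.949 and 0.993 (edgeR, Benjamini-Hochberg). Without LLC 1 they were -0.03, -0.08 and 0.12, so that no direction is read for them, nor for Ctsb, which was 0.04 without LLC 1.

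Whether Ctsl moved apart from each of the other cathepsins was tested on the log2 ratio of the 2 genes within each muscle, which does not depend on library scaling. The difference between the group means was tested against all 210 ways to split the 10 muscles (two-sided exact permutation test), for which the smallest possible p is 0.00952, with adjustment over the 9 ratios. All 9 differences were positive and 7 had an adjusted p of 0.05 or less. The sign was foreseeable, because Ctsl had the highest log2 fold change of the 10. The 9 ratios share the same Ctsl values, so their number is not separate support. Against Ctsk the ratio was 4.75 to 5.48 in control and 6.57 to 9.10 in LLC, a difference of 2.56 ± 0.41 (SE). Against Ctsh it was 3.79 to 4.48 in control and 4.78 to 7.48 in LLC, a difference of 1.59 ± 0.42. Both differences include the fall of Ctsk and of Ctsh themselves (log2 fold changes -1.85 and -0.79). Against Ctsf and Ctsz the differences were 0.80 ± 0.28 and 0.72 ± 0.23. For these 4 ratios every LLC muscle lay above every control muscle (exact permutation p = 0.00952, adjusted p = 0.0214 each), and the differences without LLC 1 were 2.28, 1.24, 0.58 and 0.53 (exact permutation p = 0.0159 each, the smallest possible with 9 muscles).

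**Figure D3:**
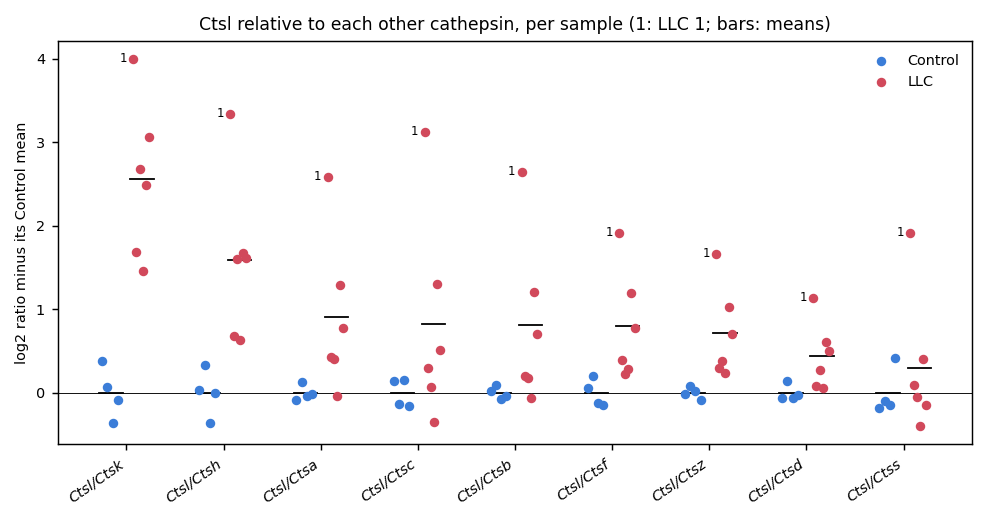
Log2 ratio of Ctsl to each other cathepsin within a muscle, minus the control mean of that ratio (y axis), with 1 point per muscle and bars at the group means; the digit 1 marks LLC 1. All 6 LLC muscles lie above all 4 control muscles for Ctsk, Ctsh, Ctsf and Ctsz, and LLC 1 is the highest muscle in all 9 ratios.

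The ratios of Ctsl to Ctsa, Ctsb and Ctsd shifted less firmly. Against Ctsa and Ctsb the differences were 0.91 ± 0.38 and 0.81 ± 0.41 (SE), with LLC 4 inside the control range for both (exact permutation p = 0.0381, adjusted p = 0.0490 each). Without LLC 1 they were 0.57 and 0.45 (exact permutation p = 0.0635 each). Against Ctsd the difference was 0.44 ± 0.17, with 4 of 6 LLC muscles above all controls (exact permutation p = 0.0286, adjusted p = 0.0490), and 0.31 without LLC 1 (exact permutation p = 0.0476). For Ctsa and Ctsb the p was above 0.05 when any 1 control muscle was left out (exact permutation p = 0.0714 to 0.0952) and when any LLC muscle other than LLC 4 was (exact permutation p = 0.0635). For Ctsd it was above 0.05 without control 1, 3 or 4 (exact permutation p = 0.0714).

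Against Ctsc and Ctss no shift was shown. The difference from Ctsc was 0.83 ± 0.52 (SE; exact permutation p = 0.190, adjusted p = 0.214), with 4 of 6 LLC muscles above all controls, and it was 1.06 without LLC 4 (exact permutation p = 0.0476). The difference from Ctss was 0.30 ± 0.37 (exact permutation p = 0.638, adjusted p = 0.638) and -0.02 without LLC 1, with 1 of 6 LLC muscles, LLC 1, above all controls. The level of Ctss rests on few counts.

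Levels of different genes can be compared only per length, and here the order depended on the length used. As RPKM, the CPM per kilobase of gene length, over all annotated exons, the control means were 255 for Ctsd, 45.0 for Ctsb, 15.0 for Ctsz, 12.6 for Ctsl, 11.4 for Ctsa, 4.85 for Ctsc, 4.26 for Ctsf, 1.54 for Ctsk, 1.02 for Ctsh and 0.850 for Ctss. The ranges over the control muscles overlapped between Ctsc and Ctsf, between Ctsk and Ctsh and between Ctsh and Ctss, so these neighbours are not ordered. The exons annotated for Ctsl add up to 6489 bases, whereas the longest transcript matched to a curated RefSeq mRNA has 1971. With that mRNA length Ctsl was at 41.6 RPKM, behind Ctsd at 282 and Ctsb at 57.5. In LLC the mean of Ctsl was 26.3 RPKM over all exons (rank 3) and 86.6 RPKM over the mRNA (rank 2), with an SD of 20.1 and 66.1. Ctsk had the lowest LLC mean by either length, at 0.418 RPKM. Over all exons its LLC range of 0.222 to 0.590 RPKM overlapped that of Ctsh, 0.386 to 0.753 RPKM, so these are not ordered. The LLC ranges of Ctsl and Ctsb also overlapped by either length. Over all exons the LLC range of Ctsl, 12.6 to 65.4 RPKM, included the LLC mean of Ctsz, 16.2 RPKM. Ctsl and Ctsz are therefore not ordered in LLC by that length.

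**Figure D4:**
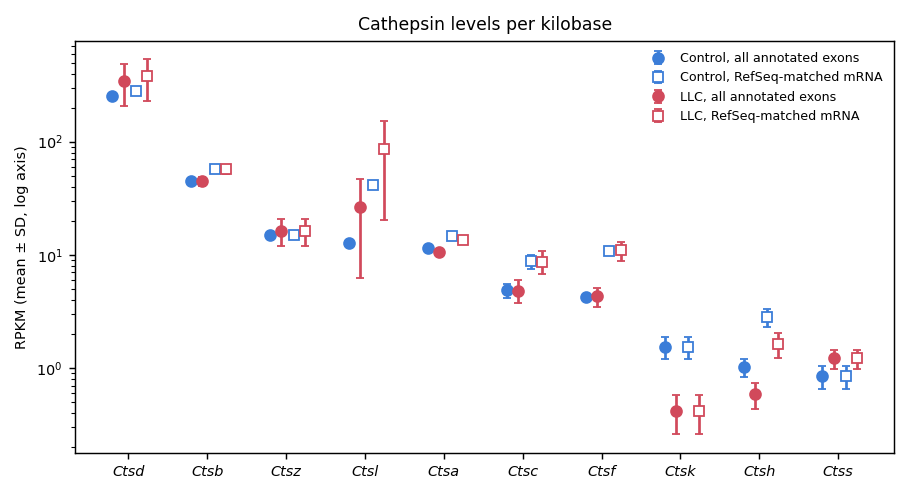
Level per kilobase (RPKM, log axis) of each cathepsin in control (blue) and LLC (red), mean ± SD over 4 and 6 muscles, with lengths from all annotated exons (filled circles) or from the RefSeq-matched mRNA (open squares). Ctsd is the highest at 255 or 282 RPKM in control, and Ctsl moves from 12.6 to 41.6 RPKM with the length used.

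Where reads could be shared, the members differ. In GENCODE release M21 Ctsl (chr13:64359337-64370890, minus strand) overlaps Gm49230 on its own strand and Gm47123 on the other, Ctsd (chr7:142375911-142388038, minus strand) overlaps Gm49369 on its own strand, Ctsb overlaps Fdft1, Ctsz overlaps Nelfcd, and Ctsa overlaps Neurl2 and Pltp on the opposite strand. The methods state default HTSeq settings, by which reads are assigned by strand and a read that falls on 2 genes of 1 strand is left uncounted, and the labels name a stranded kit. The annotation release is not given in the sources used here, and whether the strand setting matched the kit is not known. The effect of these overlaps on the counts was therefore not tested. Ctsk, Ctsh (chr9:90054152-90076089, plus strand), Ctss, Ctsc and Ctsf overlap no annotated gene.

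Protease inhibitors were read beside the enzymes, most of them cystatins, stefins and propeptide-like proteins that act on cysteine cathepsins. Of 11 listed, 6 were tested and all 6 had positive log2 fold changes. Ctla2a alone was past the threshold, against 5.63% of all tested genes. Ctla2a encodes a protein like the propeptide of cathepsin L that inhibits this class. It was at 5.93, 9.38, 11.2 and 10.2 CPM in control and at 34.7, 16.0, 16.7, 17.7, 43.4 and 26.7 CPM in LLC, so that the groups did not overlap. Its log2 fold change was 1.50 ± 0.31 (SE), adjusted p 0.0157 (edgeR, Benjamini-Hochberg). It shares the locus on chromosome 13 and much of its sequence with Ctla2b, at 0.83 (adjusted p 0.0660, edgeR with Benjamini-Hochberg), and the split of reads between the copies is uncertain. Ctla2b was called without LLC 2 (0.92) or LLC 4 (0.91), by DESeq2 (0.84) and by voom with quality weights (0.66). The call of Ctla2a was lost without control 1 (log2 fold change 1.34) and without control 2 (1.51).

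The remaining inhibitors were not past the threshold. Cystatin C (Cst3), secreted by most cells, had a log2 fold change of 0.10, stefin B (Cstb), which acts in the cytosol, 0.54, cystatin E/M (Cst6) 0.40 and Serpinb6a, a serpin that acts on serine proteases, 0.20. Cst7 and Stfa3 had 0 counts in every sample, which allows a level of up to 0.148 to 0.174 CPM. Stfa1 and Stfa2 had at most 2 counts. Stfa2l1, of the stefin A family, had 0 counts in each control library and 5, 1, 3, 7, 5 and 3 counts in LLC, too few to be tested. Of the cathepsins outside the 10, Ctso was tested (log2 fold change -0.34, adjusted p 0.164, edgeR with Benjamini-Hochberg), while Ctse, Ctsg and Ctsw had at most 2 counts in any library.

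Other parts of the lysosome did not pass the threshold as single genes. None of the 28 other hydrolases was called by edgeR, with 13 positive log2 fold changes, 7 unadjusted p of 0.05 or less and a median of -0.08. The highest was Gaa, the acid alpha-glucosidase that breaks down glycogen, at 0.87 (adjusted p 0.0980, edgeR with Benjamini-Hochberg). Its control muscles had 218 to 228 CPM and its LLC muscles 259 to 796 CPM, with no overlap. The upper end was LLC 1, and without it the LLC maximum was 481 CPM. The lowest was Arsb, an arylsulfatase, at -0.63. Unadjusted, 27.4% of all tested genes had a p of 0.05 or less.

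Among 27 genes of the lysosomal membrane and its proton pump, 0 were called by edgeR, unadjusted p was 0.05 or less for 6, and 20 had positive values with a median of 0.12. Atp6v1h, a subunit of the proton pump, was the highest at 1.20, with 10.1 to 12.8 CPM in control and 13.9 to 76.6 CPM in LLC. The upper end was LLC 1, and without it the LLC maximum was 26.9 CPM. Npc2, a cholesterol carrier, was the lowest at -0.09. Of 12 sorting genes and transcription factors of the lysosome 0 were called by edgeR and unadjusted p was 0.05 or less for 5. Sort1, a sorting receptor, was higher at an adjusted p of 0.0369 (edgeR, Benjamini-Hochberg) but changed less than 1.5-fold (log2 fold change 0.45), and Gga2, a coat adaptor, stood at -0.34. DESeq2, run over all genes, called 8.29% of them, and it called Gaa.

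**Figure D5:**
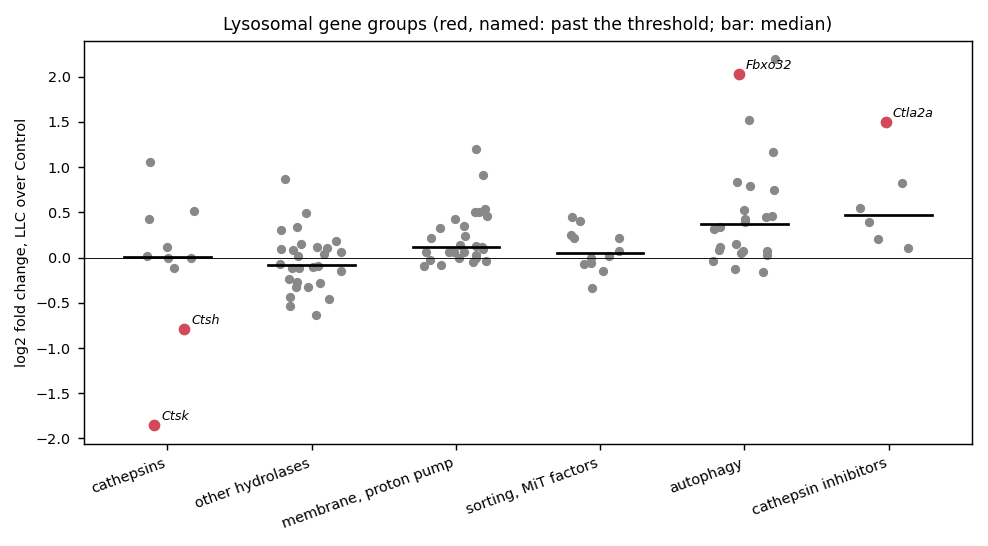
Log2 fold change, LLC over control (y axis), of every tested gene of the 10 cathepsins, the other lysosomal lists, autophagy genes and cathepsin inhibitors, with a bar at each list's median; red, named genes are past the threshold. Ctsk and Ctsh are the lowest points of the cathepsins, and the autophagy genes have 21 of 24 points above 0.

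Autophagy genes, whose products deliver cargo to the lysosome, were mostly on the positive side: 21 of 24 had positive log2 fold changes with a median of 0.37, and in 11 of 24 every LLC muscle lay above every control muscle, against 6.4% of all tested genes. The list counts the ubiquitin ligases of atrophy too, and Fbxo32 (atrogin-1), a ligase and not an autophagy protein, was its called member. That is 1 of 24, against 5.63% of all tested genes. Without the ligases Fbxo32 and Trim63, 0 of the other 22 were called by edgeR, unadjusted p was 0.05 or less for 11, 19 had positive log2 fold changes with a median of 0.33, and in 9 every LLC muscle lay above every control muscle. Fbxo32 had 269 to 385 CPM in control and 517 to 3630 CPM in LLC, with a log2 fold change of 2.03 and an adjusted p of 0.0307 (edgeR, Benjamini-Hochberg). Its call was lost without any 1 of the control muscles (1.92 to 2.08) and without LLC 5 (1.96), the log2 fold change staying near its value. Without LLC 1, 3 of the 24 were past the threshold: Fbxo32, the ligase Trim63 and Gabarapl1, a gene of the autophagosome membrane. Calls rose among all genes as well, to 966 of 12624 tested (288 of them higher) from 715 of 12690. The summed level of the list was 11656 CPM in LLC 1, 6262 in LLC 5, 3945 in LLC 6, 3424 in LLC 2, 3315 in LLC 3 and 2812 in LLC 4, and 2422 to 2541 CPM in control. Without the ligases it was 5497, 3309, 2544, 2217, 2191 and 2084 CPM in the same order of muscles, and 1901 to 1996 CPM in control. By both sums Ctsl had the same 3 highest muscles in the same order, and the same lowest LLC muscle. The leading principal component had this order too, so it is not particular to autophagy genes. A relation between Ctsl and these genes was not tested.

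Beyond stroma and immune cells, 1 of 6 endothelial markers was called, against 5.63% of all tested genes. This was Kdr at -1.13, a call that was lost without control 1, 3 or 4 or LLC 6 (-1.14 to -1.06). Of 12 fast myofibre markers 0 were called by edgeR and 3 had an unadjusted p below the threshold, with Actn3 at 0.25 and Myh1 at -0.72. Myh1 was called without LLC 1, at -0.81. No lymphocyte marker was abundant enough to be tested, with sums of 0.691 to 0.767 CPM in control and 0.335 to 0.806 CPM in LLC. Their part in the cathepsin levels was not tested.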

How the data were processed

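The authors aligned reads of total RNA libraries to mm10 with TopHat2 and counted them per gene with HTSeq, and the deposited values are raw counts per gene, not normalized, from 1 library per mouse in 1 sequencing lane. The identifiers are Ensembl genes, while the methods name RefSeq genes, so the annotation release is not given in the sources used here. The methods state default HTSeq settings, which use strand, and whether that setting matched the kit was not tested. Replicate numbers belong to different animals in the 2 groups, and p-values measure the spread between these mice. No replicate pair agreed within sampling noise (chi-square per degree of freedom 2.99 to 6.16 in 6 control pairs and 6.05 to 131 in 15 LLC pairs).

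Counts were filtered with filterByExpr (edgeR 4.0.16, R 4.3.3; minimum 10), scaled by TMM and tested with glmQLFit and glmQLFTest, group being the only term. All 10 samples entered the fit. Log2 CPM used a prior count of 2. RPKM used exon lengths of GENCODE M21. Alternatives were other scalings and filters, DESeq2 1.42.0 (the authors' tool), limma 3.58.1 voom with quality weights, a replicate block and each sample left out. On simulated counts of 12557 genes, 171 of 190 changed genes were recovered with 11 false calls (80 of 99 at 2-fold, 91 of 91 at 4-fold). These 190 were the ones that passed the filter out of 200 changed. The simulation gave both groups the same dispersion and held no outlying library, so it does not measure recovery for genes as uneven in LLC as Ctsl. Depth was 16693209 to 21303084 counts, and the 3-count floor covers counting error only, because PCR copies are not independent molecules.

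The 10 members and the 13 other gene lists (194 symbols in all) were chosen with earlier results of these data known, so no list is independent support. Named were all members, listed cathepsins and inhibitors. From each other list, every called gene was named if 4 or fewer, otherwise the 2 highest and 2 lowest called, and the highest and lowest gene where none was called. The 5 genes most like Ctsl, Ctss and Ctsk were named as well. Other listed genes enter as counts and sums. Trim63, Gabarapl1, the autophagy values without the ligases and the marker percentages were chosen after their values were seen. Small RNA libraries were not analysed here.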

Additional observations from a re-analysis of the deposited data

Results flagged for a closer look

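In 52 groups of 4 or 6 values, covering the members, inhibitors and ratios, the sample at an end was compared with the next by Dixon's gap ratio. This flagged 5 values, where chance gives about 1 in 20, or 2.6, and 3 of the 5 were LLC 1. The Ctsl level of LLC 1, 424 CPM, lay apart from the next LLC muscle at 193 CPM (gap 0.675 of the range). Stefin B (Cstb) stood at 8.69 CPM in LLC 1 and at 4.96 CPM in the next LLC muscle (0.744). Ctss was low in control 4, at 0.767 CPM against 1.24 CPM in the next control muscle (0.842), from 14 counts. The same library gave the highest control value of the log2 ratio of Ctsl to Ctss, 6.48 against 5.95 (0.863). In LLC that ratio was highest in LLC 1, at 7.96 against 6.46 (0.651).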

How the results depend on the processing

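The number of genes past the threshold, 715, was 475 when every sample had to hold 10 counts of a gene and ranged from 415 to 966 with each sample left out. The 2 called members were 1 under that stricter filter, where Ctsk was not tested, and 1 to 2 with samples left out (without any control, or without LLC 6, Ctsh was lost). Replicate numbers were not a pairing: deviations of same-numbered samples correlated at -0.08 to 0.13. With the replicate block, to which LLC 5 and LLC 6, having no partner, contribute nothing, 112 genes and 0 members were called. Members near 0 changed sign: Ctsb to 0.00016 with median-of-ratios scaling, 0.00012 with DESeq2 and 0.045 with voom weights (-0.033 to 0.044 leaving samples out); Ctsz to -0.075 with voom weights (-0.033 to 0.18); Ctsc to 0.0062 with median-of-ratios scaling, 0.0057 with no filter, 0.0063 with DESeq2 and 0.14 with voom weights (-0.082 to 0.12); and Ctsf to -0.026 with upper-quartile scaling and -0.095 with voom weights (-0.084 to 0.070). Leaving samples out, the ratio of Ctsl shifted by 0.45 to 0.99 against Ctsb, 0.31 to 0.52 against Ctsd, -0.019 to 0.44 against Ctss, 0.57 to 1.1 against Ctsa and 0.37 to 1.06 against Ctsc, which reached p 0.0476 in the exact permutation test without LLC 4. Without a Control muscle the smallest possible p is 0.0238. The rank of Ctsl in control, 4, was 3 with the mRNA length, an alternative added after seeing the data. Ctsk kept its direction in all 19 alternatives and its call in 18, and Ctsl, Ctsd and Ctss kept their direction in all 20. The causes were not tested. Depth limits Ctss and Ctsk most.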
